A study of Homo sapiens with 12 samples.

Results

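Pancreatic cancer cells release chemokines and cytokines that call in neutrophils and other immune cells, and 10 such genes and their brakes were followed here through the loss of focal adhesion kinase (FAK, gene PTK2). They were 5 CXC chemokines (CXCL1, CXCL2, CXCL3, CXCL5 and IL8, now named CXCL8), the CC chemokine CCL20, the IL6 type cytokines IL6 and LIF, and NFKBIA and TNFAIP3, which encode inhibitors of NF-κB. Members were all rows carrying 1 of these 10 names in an unnormalised array table. The rule found 12 probes for 10 genes, out of 47228 probes for 34599 gene names, with CXCL5 and IL8 measured by 2 probes each. All 12 member probes passed the filter on low signal (detection p under 0.05 on at least 2 of 12 arrays), as did 24207 of all probes.

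The arrays came from 2 human pancreatic ductal adenocarcinoma lines, MIA PaCa-2 and Capan-1. Each line carried 1 of 3 hairpins in a doxycycline-inducible vector selected with puromycin, namely a scrambled control (shCtrl) or either of 2 hairpins against FAK, sh1209 and sh1319. Every group, controls included, was given doxycycline (50 ng/ml, 96 hours), and puromycin was present at 3.5 ug/ml for MIA PaCa-2 cells and 1.5 ug/ml for Capan-1. RNA (500 ng per array) was run on 2 Illumina bead arrays per group. The study used these arrays to ask how the loss of FAK alters gene expression, and the comparisons below set each FAK hairpin against shCtrl within a line, both hairpins against each other, and both lines against each other.

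The CXC chemokines studied here bind the receptors CXCR1 and CXCR2 and attract neutrophils, whereas CCL20 binds CCR6 and attracts lymphocytes and dendritic cells. IL6 and LIF signal through receptors that share gp130 and activate STAT3. Inflammatory signals induce most of these genes through NF-κB, and NF-κB also induces NFKBIA, which holds it in the cytoplasm, and TNFAIP3 (A20), a ubiquitin-editing enzyme that damps the signal that activates it. Tumor-derived CXC chemokines and IL6 are well known in pancreatic cancer for their part in inflammation and in the recruitment of myeloid cells.

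The shared NF-κB motif of these genes is shown first, as description only. Most of these genes are known to be induced through NF-κB, and NFKBIA and TNFAIP3 were included as its inhibitors. The motif is therefore not independent of the choice of genes, and its share among them is no test. RefSeq promoters (build GRCh38.p14, 250 bases before to 50 bases after the start) were available for 9 of the 10 genes, all but LIF. A match to the kappaB consensus on either strand was found in 8 of these 9, and in 11.3% of 35116 promoters of the same length. IL8 held only the shorter core GGAATTTCC, which lies within the kappaB matches of CXCL1, CXCL2, CXCL3, CXCL5 and NFKBIA. This core was present in 6 of 9 members and in 0.461% of all promoters. Its letters are those shared by these members' own promoters, among them the close copies in CXCL1, CXCL2 and CXCL3. The higher share of the core among members is therefore no test of enrichment. The windows below run 5′ to 3′ on the strand of each gene, with the kappaB letters in capitals.
CXCL1 (chr4:73869295-73869354, plus strand): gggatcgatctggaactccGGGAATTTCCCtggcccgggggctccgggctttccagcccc
CXCL2 (chr4:74099233-74099292, minus strand): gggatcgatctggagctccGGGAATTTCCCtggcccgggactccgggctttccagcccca
CXCL3 (chr4:74038728-74038787, minus strand): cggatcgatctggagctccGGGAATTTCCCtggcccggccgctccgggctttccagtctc
CXCL5 (chr4:73998728-73998787, minus strand): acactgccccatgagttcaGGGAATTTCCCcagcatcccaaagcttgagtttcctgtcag
IL8 (chr4:73740458-73740517, plus strand): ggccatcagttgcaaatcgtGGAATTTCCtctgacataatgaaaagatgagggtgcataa
CCL20 (chr2:227813743-227813802, plus strand): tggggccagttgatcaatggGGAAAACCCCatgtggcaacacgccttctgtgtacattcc
IL6 (chr7:22727107-22727166, plus strand): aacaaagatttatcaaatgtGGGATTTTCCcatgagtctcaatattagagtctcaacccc
NFKBIA (chr14:35404791-35404850, minus strand): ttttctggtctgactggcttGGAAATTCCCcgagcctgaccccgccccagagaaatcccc
TNFAIP3 (chr6:137867184-137867243, plus strand): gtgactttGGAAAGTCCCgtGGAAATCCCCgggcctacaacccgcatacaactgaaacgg

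These matches lay upstream of the start and close together. The first base of the kappaB letters was 79 bases before the start in CXCL1 and CXCL3, 78 in CXCL2, 91 in CXCL5 and IL8, 79 in CCL20, 73 in IL6 and 81 in NFKBIA, and TNFAIP3 had a pair at 67 and 55 bases. The CXCL1, CXCL2 and CXCL3 windows are close copies of one another, and their genes, with CXCL5 and IL8, lie on chromosome 4 in the order CXCL8, CXCL6, PF4V1, CXCL1, PF4, PPBP, CXCL5, CXCL3 and CXCL2 in the RefSeq annotation. The AP-1 site TGANTCA matched in 1 of the 9 promoters, that of IL8, against 7.71% of all promoters, and the C/EBP core TTGCNNAA matched in 2, CXCL2 and IL6, against 10.5%. A match describes the letters only, and binding was not measured.

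Chemokine expression rose with both FAK hairpins in Capan-1, whereas in MIA PaCa-2 the response depended on the hairpin. In Capan-1, 10 of 12 member probes, for 8 of 10 genes, rose with sh1209 and 10 of 12 with sh1319, and none fell (limma, adjusted p under 0.05 over all 24207 probes). Over all tested probes, 16.8% were called with sh1209 and 13.7% with sh1319 in Capan-1. The median log2 change of the 12 member probes was 2.17 with sh1209 and 0.80 with sh1319, against -0.01 and -0.00 over all probes. In MIA PaCa-2, 1 member probe rose and 3 fell with sh1209, where 18.0% of all probes were called, and 6 rose and 1 fell with sh1319, where 24.3% were called. The 4 comparisons share the shCtrl arrays of each line. With only 2 arrays per group, and no label that says whether they came from separate cultures, p-values measure the spread between these arrays, which may be technical.

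**Figure D1:**
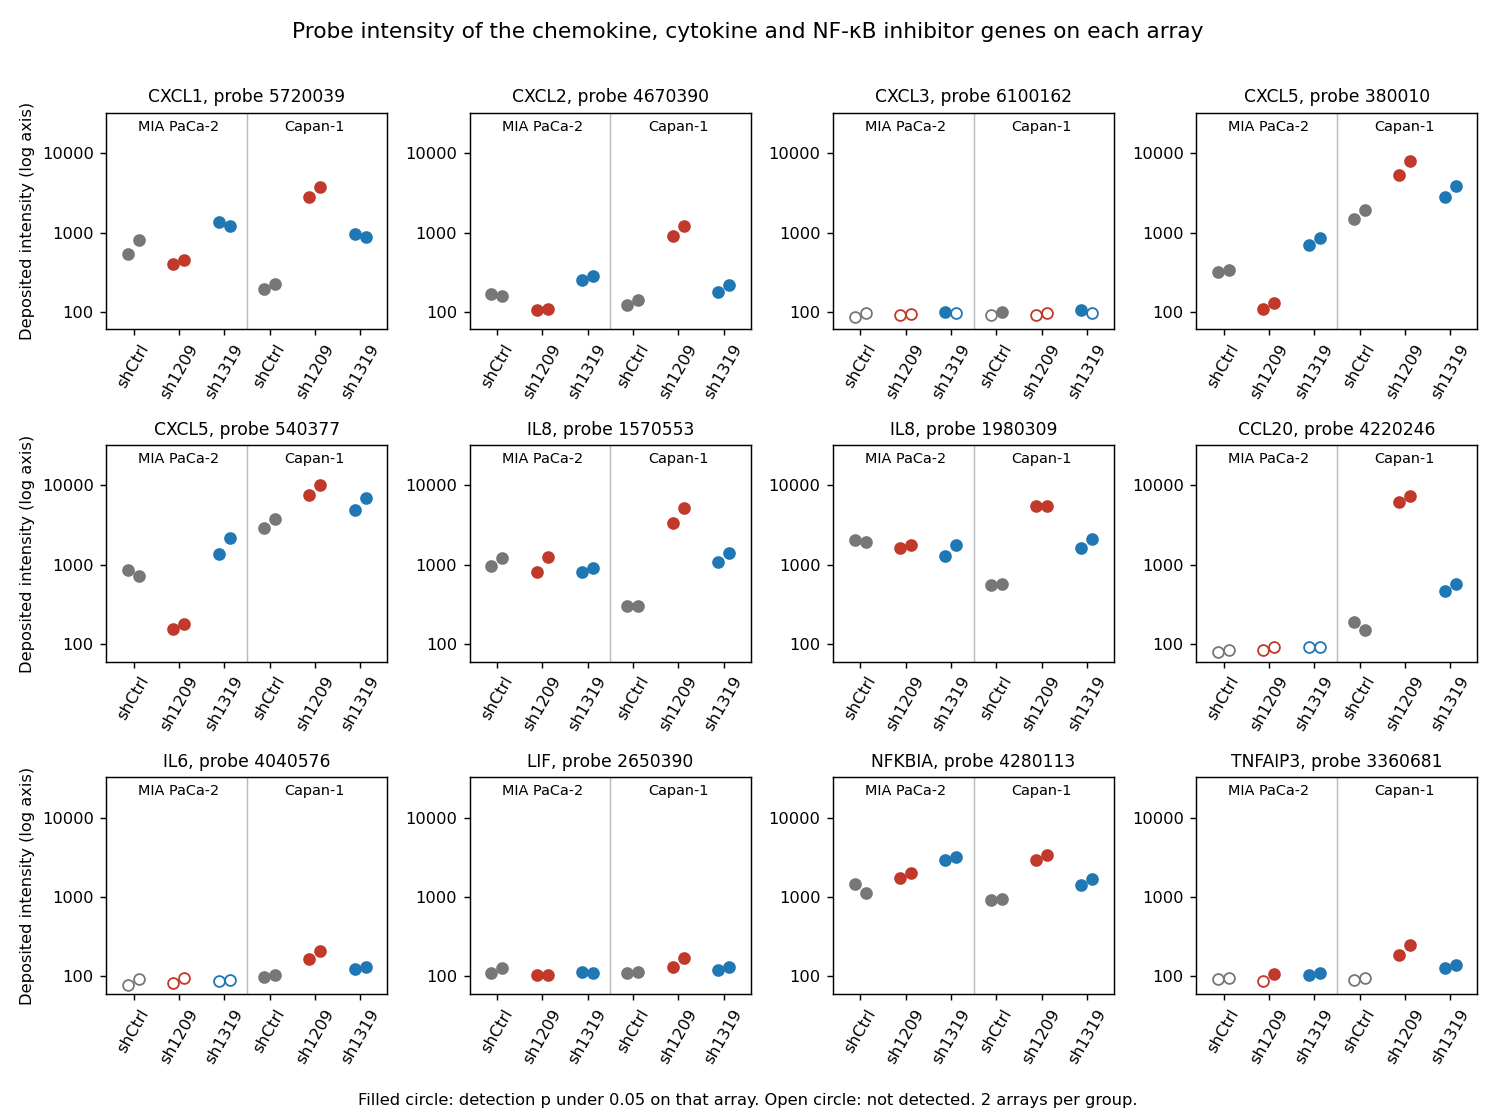
Deposited intensity on a log axis of each of the 12 member probes on all 12 arrays, by cell line and hairpin. Each circle is 1 array, filled where the probe was detected and open where it was not. In Capan-1 the sh1209 arrays sit above both shCtrl arrays for 11 of the 12 probes, all but CXCL3, while in MIA PaCa-2 CXCL5 falls with sh1209 and rises with sh1319.

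The target of the hairpins checked the labels. PTK2 probe 450253 read 773.3 and 708.0 with shCtrl in MIA PaCa-2, 191.8 and 211.8 with sh1209 and 175.1 and 219.1 with sh1319. In Capan-1 it read 1220.5 and 1178.1 with shCtrl, 820.9 and 1057.2 with sh1209 and 419.6 and 532.8 with sh1319. PTK2 was thus lowest with both hairpins in MIA PaCa-2 and least reduced with sh1209 in Capan-1, although no group overlapped its control. The log2 change against shCtrl was -2.24 and -2.48 in MIA PaCa-2 (SE 0.11, adjusted p = 1.5e-07 and 5.2e-08) and -0.61 and -1.78 in Capan-1 (adjusted p = 0.0036 and 5.9e-06), for sh1209 and sh1319 respectively. Capan-1 with sh1209, the group with the smallest fall in PTK2, held the largest rises in chemokine genes, and the part of the remaining PTK2 in those rises was not tested. With median scaling of the arrays in place of quantile normalisation, the PTK2 fall with sh1209 in Capan-1 was -0.42 and did not pass the test. The second PTK2 probe, 2680750, was not called with either hairpin in either line.

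Levels are of the mixed RNA of each culture, so that fewer expressing cells and less RNA per cell cannot be told apart. The arrays were alike in signal, with median intensities from 87.7 to 97 and 16259 to 19814 probes detected per array. All 8 epithelial marker genes (such as EPCAM and KRT19) were detected on every Capan-1 array and 3 of 8 on every MIA PaCa-2 array, where the summed intensity of 4 mesenchymal genes with shCtrl was 17545.5 to 19405.1, mostly VIM. The other mesenchymal genes, CDH2, ZEB1 and SNAI2, were detected on none of the MIA PaCa-2 arrays. In Capan-1, CDH2 was detected on 6 arrays, SNAI2 on 4 and 3 (probes 50255 and 6330730) and ZEB1 on none. A list of 6 fibroblast genes moved with the FAK hairpins in MIA PaCa-2, where its summed intensity was 938.5 to 940.7 with shCtrl, 1709.1 to 1942.5 with sh1209 and 2924.5 to 3416.3 with sh1319. DCN, LUM and PDGFRB were detected on none of the 6 MIA PaCa-2 arrays, and the higher sums came from COL1A2 and COL3A1. In Capan-1 that list stayed between 854.0 and 930.3. The leukocyte list (8 genes, 17 probes) summed to 6587.3 to 6791.3 in Capan-1 with shCtrl and was lower with the FAK hairpins, at 4131.0 to 4970.8 with sh1209 and 5156.5 to 6454.6 with sh1319. LYZ and CD68 were the leukocyte genes detected on every Capan-1 array, while PTPRC (CD45) and CD3E were detected on none. In MIA PaCa-2 the list measured 1802.2 to 1828.7, 1871.5 to 2222.8 and 1855.6 to 1962.8.

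CXCL1, the first of the neutrophil chemokines, rose most with sh1209 in Capan-1. Its intensity in that line was 195.7 and 225.8 with shCtrl, 2821.5 and 3780.2 with sh1209 and 959.7 and 886.2 with sh1319. The groups did not overlap, and the order was shCtrl, sh1319, sh1209. The rise was 22.8-fold with sh1209 (log2 change 4.51 ± 0.25 SE, adjusted p = 3.7e-07) and 5.54-fold with sh1319 (2.47 ± 0.25, adjusted p = 1e-04), and the hairpins differed by 2.04 on the log2 scale (adjusted p = 3e-04). In MIA PaCa-2 the readings were 541.5 and 813.7 with shCtrl, 402.1 and 456.1 with sh1209 and 1378.3 and 1212.8 with sh1319. Here the sh1319 arrays lay above the controls and the sh1209 arrays below them. The change was -0.68 with sh1209 (adjusted p = 0.082, not called) and 0.86 with sh1319 (adjusted p = 0.024). Both MIA PaCa-2 calls turned on single arrays and on the processing, and the 2 controls differed by a log2 SD of 0.54. Without MIA PaCa-2 shCtrl replicate 1 the sh1209 change was -1.06 (adjusted p = 0.014) and the sh1319 change 0.49 (adjusted p = 0.19), and without MIA PaCa-2 sh1319 replicate 1 the latter was 0.59 (adjusted p = 0.19). The sh1209 change passed the test under median scaling (-0.71, adjusted p = 0.030), with no background correction (-0.60, adjusted p = 0.014) and with an offset of 50 (-0.64, adjusted p = 0.040). The sh1319 change did not pass with no filter on low signal (adjusted p = 0.056) or when the arrays of that line were fitted alone (adjusted p = 0.080). The direct difference between hairpins in MIA PaCa-2, sh1209 minus sh1319, was -1.55 (adjusted p = 0.00076).

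CXCL2, a close relative of CXCL1 with the same receptor, went in opposite directions with the 2 hairpins in MIA PaCa-2. There its intensity was 169.3 and 159.0 with shCtrl, 104.3 and 108.5 with sh1209 and 255.1 and 281.4 with sh1319. No 2 groups overlapped. CXCL2 fell 2.71-fold with sh1209 (-1.44 ± 0.14, adjusted p = 2.2e-05) and rose 1.80-fold with sh1319 (0.85 ± 0.14, adjusted p = 0.00072). The size of the fall depended on the background correction, being 1.61-fold without one (-0.69, adjusted p = 4.4e-07) and -0.95 on the log2 scale with an offset of 50. In Capan-1 it read 121.9 and 140.6 with shCtrl, 899.5 and 1201.1 with sh1209 and 178.2 and 215.8 with sh1319. CXCL2 was higher with both hairpins in this line, far more so with sh1209. The rises were 15.3-fold (3.93, adjusted p = 8.8e-09) and 1.68-fold (0.75, adjusted p = 0.0036), a difference of 3.18 between hairpins (adjusted p = 9.5e-08). Without background correction the sh1319 rise was 0.39 (adjusted p = 0.00053). Over the alternative ways of processing and with each array left out in turn, the sh1209 rise ranged from 2.89 to 4.06 on the log2 scale.

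CXCL3, the third of this group, was near background throughout. Its intensity ranged from 85.6 to 99.7 in MIA PaCa-2 and from 91.8 to 106.5 in Capan-1, and it was detected on 3 of 12 arrays. The changes were 0.01 and 0.17 for MIA PaCa-2 cells and -0.11 and 0.08 for Capan-1 (SE 0.21), none of them called. The 95% interval for sh1209 in Capan-1, -0.58 to 0.35, did not reach the changes of CXCL1 and CXCL2, though a probe at background has little room to show one. CXCL1, CXCL2 and CXCL3 are near-identical paralogs, and probe sequences were not used here. On the Capan-1 sh1209 arrays the CXCL3 probe read 92.1 and 97.3, not detected, where CXCL1 read 2821.5 and 3780.2 and CXCL2 899.5 and 1201.1. For the CXCL1 and CXCL2 probes, cross-hybridisation cannot be told apart from their own signal.

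CXCL5, which also signals through CXCR2, was the member with the strongest fall. Probe 540377 read 866.9 and 714.8 in MIA PaCa-2 with shCtrl, 154.8 and 180.2 with sh1209 and 1367.5 and 2150.5 with sh1319. Probe 380010 gave 322.6 and 337.3, then 108.7 and 129.7, then 692.8 and 855.6. With either probe the groups were fully apart, sh1209 below the controls and sh1319 above them. The falls with sh1209 were 6.76-fold and 5.25-fold (log2 changes -2.76 and -2.39, SE 0.14, adjusted p = 1.8e-07 and 5.1e-07), and the rises with sh1319 were 2.02-fold and 2.27-fold (adjusted p = 3e-04 and 9.4e-05). Without background correction the fall by probe 380010 was -1.50 (adjusted p = 2e-10). Between the hairpins the difference was -3.77 and -3.58, the largest of any member probe in MIA PaCa-2.

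In Capan-1, CXCL5 started high and rose further. Probe 540377 read 2926.6 and 3724.3 with shCtrl, 7509.9 and 10072.8 with sh1209 and 4847.2 and 7007.5 with sh1319. Probe 380010 read 1503.5 and 1907.0, then 5277.2 and 7981.0, then 2791.4 and 3870.7. All FAK hairpin arrays lay above both controls. The rises were 2.67-fold and 3.99-fold with sh1209 (adjusted p = 5.4e-05 and 3.4e-06) and 1.59-fold and 1.81-fold with sh1319 (adjusted p = 0.0094 and 0.0024). For probe 540377 the sh1319 call rested on single arrays, since its change was 0.54 (adjusted p = 0.087) without Capan-1 sh1319 replicate 2 and 0.56 (adjusted p = 0.085) without Capan-1 shCtrl replicate 1. Its difference between hairpins, 0.74 (adjusted p = 0.0065), was 0.61 without Capan-1 sh1319 replicate 1 (adjusted p = 0.067) and 0.59 under median scaling (adjusted p = 0.15), while probe 380010 gave 1.14 (adjusted p = 0.00039).

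IL8 (CXCL8), a potent neutrophil chemokine acting on CXCR1 and CXCR2, rose in Capan-1 and did not rise in MIA PaCa-2. In Capan-1 probe 1980309 read 548.2 and 570.4 with shCtrl, 5533.1 and 5568.9 with sh1209 and 1603.1 and 2125.9 with sh1319. Probe 1570553 read 298.2 and 299.0, then 3358.7 and 5146.2, then 1076.3 and 1407.2. The 3 groups were apart by both probes. The rise was 11.3-fold and 18.1-fold with sh1209 (log2 changes 3.50 ± 0.14 and 4.18 ± 0.18, adjusted p = 2.5e-08 and 3.6e-08) and 3.30-fold and 4.63-fold with sh1319 (adjusted p = 2.8e-05 and 2.4e-05). The hairpins differed by 1.77 and 1.96 (adjusted p = 1.1e-05 and 2.9e-05).

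MIA PaCa-2 had more IL8 than Capan-1 to begin with. Its readings for probe 1980309 were 2054.7 and 1926.4 with shCtrl, 1623.4 and 1777.5 with sh1209 and 1293.5 and 1761.0 with sh1319, and for probe 1570553 they were 954.1 and 1201.2, then 811.5 and 1257.7, then 798.1 and 907.4. The sh1209 arrays overlapped the controls by probe 1570553 and lay below them by the other, and the sh1319 arrays lay below the controls by both. With sh1209 the changes were -0.15 and -0.03 (adjusted p = 0.52 and 0.95). With sh1319, probe 1980309 fell by 0.53 on the log2 scale (adjusted p = 0.017) and probe 1570553 gave -0.49 (adjusted p = 0.066, not called). This small fall depended on single arrays and on the processing. Probe 1980309 gave -0.47 (adjusted p = 0.10) without MIA PaCa-2 sh1319 replicate 1, -0.54 (adjusted p = 0.054) without MIA PaCa-2 shCtrl replicate 1 and -0.51 (adjusted p = 0.072) without MIA PaCa-2 shCtrl replicate 2, and probe 1570553 gave -0.71 (adjusted p = 0.020) without MIA PaCa-2 shCtrl replicate 1. Median scaling gave probe 1980309 -0.43 (adjusted p = 0.18). Probe 1570553 passed the test with no background correction (-0.45, adjusted p = 0.0077), with an offset of 50 (-0.47, adjusted p = 0.024) and with a stricter filter that kept 16332 probes (adjusted p = 0.048).

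CCL20, the ligand of CCR6, had the largest change of any member. In Capan-1 it read 189.1 and 151.5 with shCtrl, 6087.3 and 7376.9 with sh1209 and 469.1 and 564.7 with sh1319. The sh1209 arrays stood far above all others. The rise was 73.8-fold with sh1209 (log2 change 6.21 ± 0.19, adjusted p = 5.9e-09) and 4.03-fold with sh1319 (2.01 ± 0.19, adjusted p = 8.4e-05), a difference of 4.19 between hairpins (adjusted p = 1.7e-07). Over the alternative ways of processing and with each array left out in turn, the sh1209 rise ranged from 5.41 to 6.59 on the log2 scale. The intensities above differ by a smaller factor than 73.8. In MIA PaCa-2 CCL20 was detected on none of 6 arrays, with readings from 80.0 to 92.4 and changes of 0.13 and 0.18 (adjusted p = 0.74 and 0.60).

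**Figure D2:**
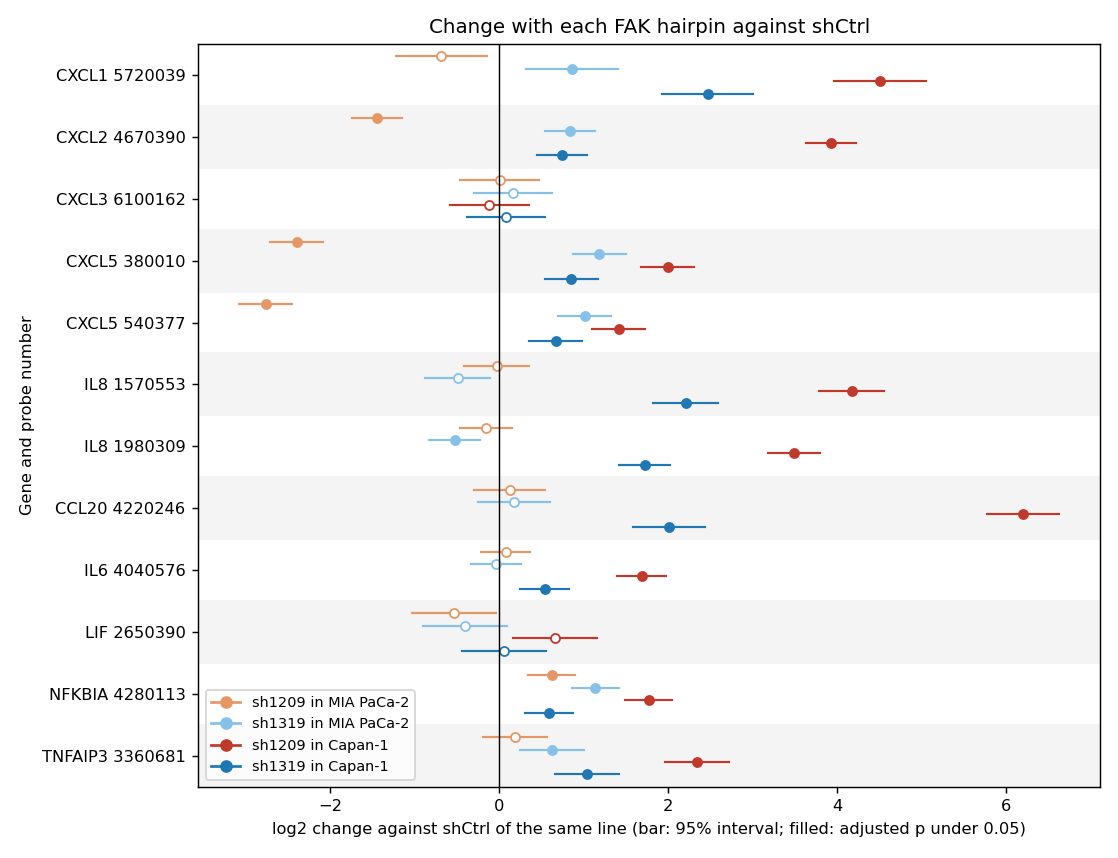
Log2 change against the shCtrl arrays of the same line for each member probe (circle) with its 95% interval (bar), 4 colors for the 4 pairs of hairpin and line, filled where the adjusted p was under 0.05. The sh1209 changes in Capan-1 lie farthest to the right for 11 of 12 probes, reaching 6.21 for CCL20, and the sh1209 changes of CXCL2 and CXCL5 in MIA PaCa-2 lie to the left of 0.

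Of the IL6 type cytokines, IL6 rose from a low level in Capan-1 and LIF was not called in any pair. IL6 read 96.4 and 103.3 with shCtrl in Capan-1, 164.4 and 207.5 with sh1209 and 121.5 and 129.3 with sh1319. These groups were apart, at signals close to background. The rise was 3.22-fold with sh1209 (1.69 ± 0.13, adjusted p = 7.4e-06) and 1.46-fold with sh1319 (0.54 ± 0.13, adjusted p = 0.019). The sh1319 call was lost without Capan-1 sh1319 replicate 1 (0.45, adjusted p = 0.13), without Capan-1 shCtrl replicate 1 (0.51, adjusted p = 0.11) and without Capan-1 shCtrl replicate 2 (0.58, adjusted p = 0.070), and the change was 0.18 (adjusted p = 0.11) with no background correction. The sh1209 rise, still called, was 0.72 with no background correction and 1.02 with an offset of 50. On the MIA PaCa-2 arrays IL6 was not detected on any of 6, with readings from 77.7 to 95.6.

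LIF, which maintains stem cell states in several tissues, was detected on all 12 arrays at low signal. It read 108.5 and 125.3 with shCtrl in MIA PaCa-2, 103.0 and 104.2 with sh1209 and 113.8 and 109.1 with sh1319. In Capan-1 the readings were 108.3 and 112.9, 128.6 and 170.4, and 117.7 and 130.4. Both FAK hairpins lay above the controls in Capan-1, while in MIA PaCa-2 the sh1319 arrays overlapped them. The log2 changes were -0.53 and -0.41 for MIA PaCa-2 cells and 0.66 and 0.06 for Capan-1 (SE 0.23, adjusted p = 0.14, 0.24, 0.070 and 0.92). The 0.66 with sh1209 in Capan-1 passed the test when any 1 of the 4 MIA PaCa-2 shCtrl and sh1319 arrays was left out (adjusted p from 0.043 to 0.048), and under median scaling it was 0.89 (adjusted p = 0.0061). It also passed with array weights (adjusted p = 0.043), in Capan-1 alone (adjusted p = 0.0097), with an offset of 50 (0.40, adjusted p = 0.037) and with no background correction (0.27, adjusted p = 0.032). The -0.53 with sh1209 in MIA PaCa-2 was -0.82 (adjusted p = 0.047) without MIA PaCa-2 shCtrl replicate 1.

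NFKBIA, the inhibitor IκBα, was the only member whose rise passed the test in all 4 pairs. Its intensity in MIA PaCa-2 was 1435.2 and 1127.1 with shCtrl, 1724.9 and 1970.3 with sh1209 and 2920.3 and 3141.3 with sh1319. Capan-1 gave 913.5 and 943.4, 2938.5 and 3396.9, and 1410.0 and 1653.3. Every FAK hairpin array lay above both controls of its line, with the higher values under sh1319 in MIA PaCa-2 and under sh1209 in Capan-1. The rises were 1.54-fold and 2.21-fold in MIA PaCa-2 (log2 changes 0.63 and 1.14, SE 0.13, adjusted p = 0.0053 and 5.3e-05) and 3.41-fold and 1.51-fold in Capan-1 (1.77 and 0.59, adjusted p = 3.6e-06 and 0.0099). Hairpins differed by -0.52 in MIA PaCa-2 (adjusted p = 0.012) and by 1.18 in Capan-1 (adjusted p = 0.00013), each as sh1209 minus sh1319. Single arrays carried the smaller values. The sh1319 rise in Capan-1 was 0.55 (adjusted p = 0.068) without Capan-1 sh1319 replicate 1 and 0.57 (adjusted p = 0.066) without Capan-1 shCtrl replicate 2, the difference between hairpins in MIA PaCa-2 was -0.47 (adjusted p = 0.069) without MIA PaCa-2 sh1209 replicate 2 and -0.42 (adjusted p = 0.10) without MIA PaCa-2 sh1319 replicate 1, and the sh1209 rise in MIA PaCa-2 was 0.58 (adjusted p = 0.065) under median scaling.

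TNFAIP3 (A20) was not detected with shCtrl in either line. Its readings were 90.1 and 95.4 with shCtrl in Capan-1, 183.0 and 246.6 with sh1209 and 125.3 and 138.9 with sh1319. In MIA PaCa-2 they were 91.2 and 93.8, 86.1 and 105.0, and 103.6 and 110.5. TNFAIP3 was detected on all 4 Capan-1 arrays with a FAK hairpin and on 3 of 4 such MIA PaCa-2 arrays. In Capan-1 its level exceeded the controls at least 4.79-fold under sh1209 (adjusted p = 4.3e-06) and at least 1.95-fold under sh1319 (adjusted p = 0.0023), and in MIA PaCa-2 at least 1.34-fold under sh1319 (adjusted p = 0.020). These bounds set the mean of the hairpin arrays against the lowest signal of any detected probe on each control array, or the probe's own signal where higher, all after background correction, and they hold for that correction only. With no background correction the changes were 1.00 (2.01-fold, adjusted p = 4e-09) and 0.35 (1.27-fold, adjusted p = 0.0019) in Capan-1 and 0.20 (adjusted p = 0.056) under sh1319 in MIA PaCa-2. The change with sh1209 in MIA PaCa-2 was 0.19 (adjusted p = 0.51), and 0.51 (adjusted p = 0.036) without MIA PaCa-2 sh1209 replicate 1. The sh1319 call in MIA PaCa-2 did not pass when any 1 of the 4 shCtrl or sh1319 arrays of that line was left out, with changes from 0.60 to 0.66 and adjusted p from 0.063 to 0.092. It did not pass under median scaling (0.53, adjusted p = 0.093) or with that line fitted alone (adjusted p = 0.084) either.

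Averaged over hairpins and lines, 9 of 12 member probes, for 8 of 10 genes, rose with FAK knockdown and none fell, with a median log2 change of 1.03, while 25.2% of all tested probes were called. The largest mean rises were CCL20 (2.13 ± 0.12 SE, adjusted p = 3.4e-07), CXCL1 (1.79 ± 0.15, adjusted p = 8.3e-06) and IL8 (1.47 and 1.13, adjusted p = 3e-06 and 3.9e-06). The MIA PaCa-2 part of the CCL20 value came from arrays on which it was not detected. NFKBIA and CXCL2 followed at 1.03 and 1.02. The TNFAIP3 rise, measured against controls on which it was not detected, was called (adjusted p = 3.1e-05) at a size that ran from 1.05 to 0.40 with and without background correction, and is not ranked among them. This average hid opposite changes, since CXCL5 gave 0.41 (adjusted p = 0.0050) by 1 probe and 0.09 (adjusted p = 0.53) by the other after falling in 1 pair and rising in the other 3. With sh1209 in MIA PaCa-2, CXCL2 also fell (-1.44, adjusted p = 2.2e-05) and CXCL1 gave -0.68 (not called). IL8 rose with neither hairpin in that line.

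Before any loss of FAK, the lines differed in which chemokine they made. With shCtrl, 9 of 12 member probes differed between MIA PaCa-2 and Capan-1, 5 higher and 4 lower in MIA PaCa-2, while 42.1% of all tested probes were called. MIA PaCa-2 had 4.33-fold more CXCL1 (log2 difference 2.11, adjusted p = 2.2e-05), 1.83-fold more CXCL2 (0.87, adjusted p = 0.00022, and 0.46 with no background correction) and 4.30-fold and 3.66-fold more IL8 (2.10 and 1.87, adjusted p = 1.2e-06 and 4.8e-07). Capan-1 had 6.12-fold and 4.80-fold more CXCL5 (-2.61 and -2.26, adjusted p = 2.8e-08 and 1.1e-07). Neither CCL20 nor IL6 was detected in MIA PaCa-2, where CCL20 was lower by a factor of at least 3.78 (adjusted p = 8.7e-07) and IL6 by at least 1.12 (adjusted p = 0.0044). These bounds hold for the background correction used. Without it CCL20 differed 2.09-fold (adjusted p = 1.7e-08) and IL6 1.18-fold (adjusted p = 0.013), and with an offset of 50 CCL20 differed 2.56-fold (adjusted p = 7.4e-07). NFKBIA was 1.32-fold higher in MIA PaCa-2 (adjusted p = 0.025), a call lost under median scaling (0.49, adjusted p = 0.062), without either Capan-1 shCtrl array (adjusted p = 0.067 and 0.11) or without MIA PaCa-2 shCtrl replicate 1 (0.29, adjusted p = 0.16). Puromycin dose differed between the lines as well, so that line and dose cannot be told apart.

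Both hairpins were also set against each other directly. In Capan-1, 10 of 12 member probes were higher with sh1209 than with sh1319 and none lower, where 11.3% of all probes were called. In MIA PaCa-2, 5 of 12 were lower with sh1209 (CXCL1, CXCL2, NFKBIA and both CXCL5 probes) and none higher, where 22.6% were called. The hairpins therefore ranked in opposite order in the 2 lines for these 4 genes. PTK2 probe 450253 did not differ between hairpins in MIA PaCa-2 by the test (0.24, 95% interval -0.01 to 0.49, adjusted p = 0.17). In Capan-1 the same probe was higher with sh1209 (1.16, adjusted p = 6.2e-05). The second PTK2 probe, 2680750, at low signal, was higher with sh1209 than with sh1319 in MIA PaCa-2 (0.59, adjusted p = 0.021). In Capan-1 probe 2680750 gave -0.00054 and was not called.

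The difference between lines was tested as an interaction, the change in MIA PaCa-2 minus that in Capan-1. Averaged over hairpins, 9 of 12 member probes differed, all lower in MIA PaCa-2, where 14.4% of all probes were called. For sh1209 alone, 11 of 12 differed, again all lower, against 14.8%, and the median difference was -3.91. For sh1319 alone, 4 of 12 differed against 14.0%, namely CXCL1, CCL20 and both IL8 probes. The comparisons by single hairpin were chosen after seeing the data. With sh1319 the rises of CXCL2 and CXCL5 did not differ by the test between lines, with differences of 0.09 (95% interval -0.32 to 0.51) for CXCL2 and 0.33 (-0.12 to 0.77) and 0.34 (-0.10 to 0.79) for CXCL5.

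**Figure D3:**
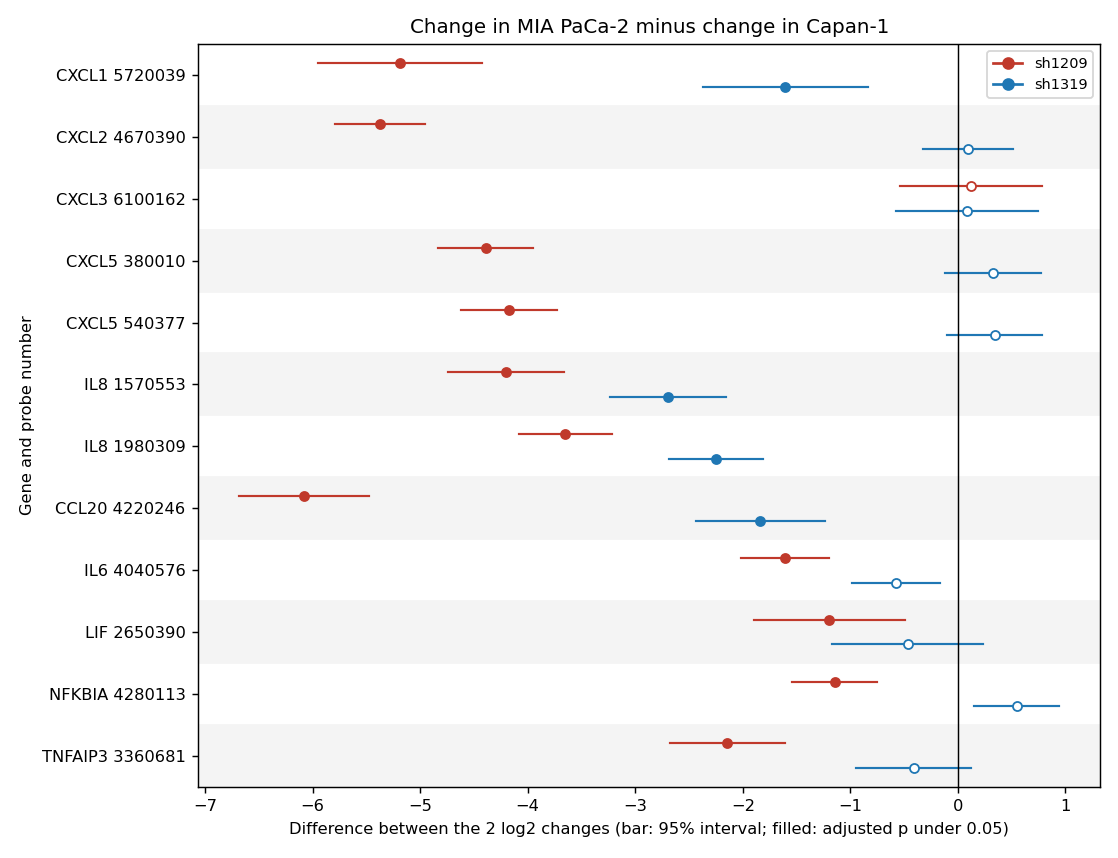
Difference between lines in the response of each member probe, as the log2 change in MIA PaCa-2 minus the log2 change in Capan-1 (circle) with its 95% interval (bar), for sh1209 and sh1319, filled where the adjusted p was under 0.05. All probes but CXCL3 lie below 0 for sh1209, down to -6.08 for CCL20, while for sh1319 CXCL2, CXCL3, CXCL5 and NFKBIA lie above 0.

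The pathways around these genes were read from 8 further lists of 120 genes, of which 94 genes with 132 probes were tested. With sh1209 in Capan-1, 52 of the 132 probes rose and 5 fell (43.2% called), and with sh1319 in Capan-1, 26 rose and 10 fell (27.3%). In MIA PaCa-2, 19 rose and 20 fell with sh1209 (29.5%), and 41 rose and 13 fell with sh1319 (40.9%). These shares stand beside the 16.8%, 13.7%, 18.0% and 24.3% of all probes given above, and so do the counts of each list below.

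Other chemokines rose in Capan-1 with sh1209, 9 of 12 probes and none lower, with a median of 1.73. CXCL6, a CXCR2 ligand whose gene neighbors IL8, rose most among them in the average over lines and hairpins (2.11 ± 0.12, adjusted p = 4.4e-07). Its probe 60192 read 98.8 and 93.1 with shCtrl in Capan-1, 739.4 and 1187.9 with sh1209 and 228.2 and 290.9 with sh1319. Probe 6620487 rose 36.4-fold with sh1209 in Capan-1 (5.19 ± 0.14, adjusted p = 1.5e-09), the largest rise of any listed probe there. It read 97.6 and 102.4 with shCtrl in that line, close to background, and 1040.7 and 1394.3 with sh1209. The 36.4-fold value is after background correction, and these intensities differ by a smaller factor. With sh1319 in Capan-1, 3 chemokine probes rose and 1 fell. In MIA PaCa-2, 1 of the 12 was called with sh1209 and 0 with sh1319, and the CXCL6 probes were near background, with 0.34 and 0.56 by probe 60192 and -0.35 and 0.05 by probe 6620487, none of them called. The list of receptors for these chemokines had 1 tested gene of 4, CCR6, with no probe called in any pair.

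Of the inhibitors that restrain NF-κB along with NFKBIA and TNFAIP3, 16 probes were tested. With sh1319 in MIA PaCa-2 9 rose, with sh1209 in Capan-1 6 rose and with sh1319 in Capan-1 2 rose, and none fell in these pairs, whereas sh1209 in MIA PaCa-2 gave 1 rise and 1 fall. ZC3H12A, an RNase that degrades cytokine mRNAs such as that of IL6, had the largest fitted mean rise (0.95 ± 0.09, adjusted p = 2.7e-05). Its changes in Capan-1 were 2.48 with sh1209 (adjusted p = 1e-06) and 0.24 with sh1319 (adjusted p = 0.38). In MIA PaCa-2 it was not detected with shCtrl or sh1209, and with sh1319 it was at least 1.51-fold above the controls after background correction (adjusted p = 0.00032). Among the 19 probes for NF-κB subunits and the IKK complex, RELB, a subunit of the non-canonical pathway, had the largest mean rise (0.76 ± 0.14, adjusted p = 0.0022), with changes of -0.45 and 1.14 for MIA PaCa-2 cells and 1.04 and 1.32 for Capan-1. In that list 3 rose and 3 fell with sh1209 in MIA PaCa-2, 5 rose and 2 fell with sh1319, 4 rose in Capan-1 with sh1209 and 2 with sh1319.

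Other NF-κB responsive genes, with 37 tested probes, divided MIA PaCa-2 by hairpin. With sh1209 in that line 3 rose and 12 fell, and with sh1319 14 rose and 4 fell. In Capan-1, 22 rose and none fell with sh1209, and 15 rose and 1 fell with sh1319. BIRC3, an inhibitor of apoptosis, had the largest fall of the listed probes with sh1209 in MIA PaCa-2 (probe 5080021, 6.84-fold, -2.77 ± 0.12, adjusted p = 4.1e-08). It read 879.0 and 824.4 with shCtrl in MIA PaCa-2, 158.6 and 190.5 with sh1209 and 1117.7 and 1678.0 with sh1319, so that, as for CXCL5, the hairpins lay on opposite sides of the controls. SAA1, an acute phase protein, had the largest mean rise in the list (probe 1690563, 1.84 ± 0.07, adjusted p = 1.9e-08), with 4.15 in Capan-1 under sh1209 and no detection on the MIA PaCa-2 shCtrl arrays. PTGS2, which encodes cyclooxygenase 2, rose 6.78-fold with sh1319 in Capan-1 (probe 1820632, 2.76, adjusted p = 1.4e-07). With sh1209 in Capan-1 the same probe rose 9.91-fold (3.31, adjusted p = 7.5e-09), and no MIA PaCa-2 array detected it. IER3, an early response gene, fell most in the list on average (-1.05 ± 0.07, adjusted p = 2.3e-06). IER3 changes were -2.29 and -1.65 in MIA PaCa-2 for sh1209 and sh1319, then 1.06 and -1.31 for the same hairpins in Capan-1, all called.

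**Figure D4:**
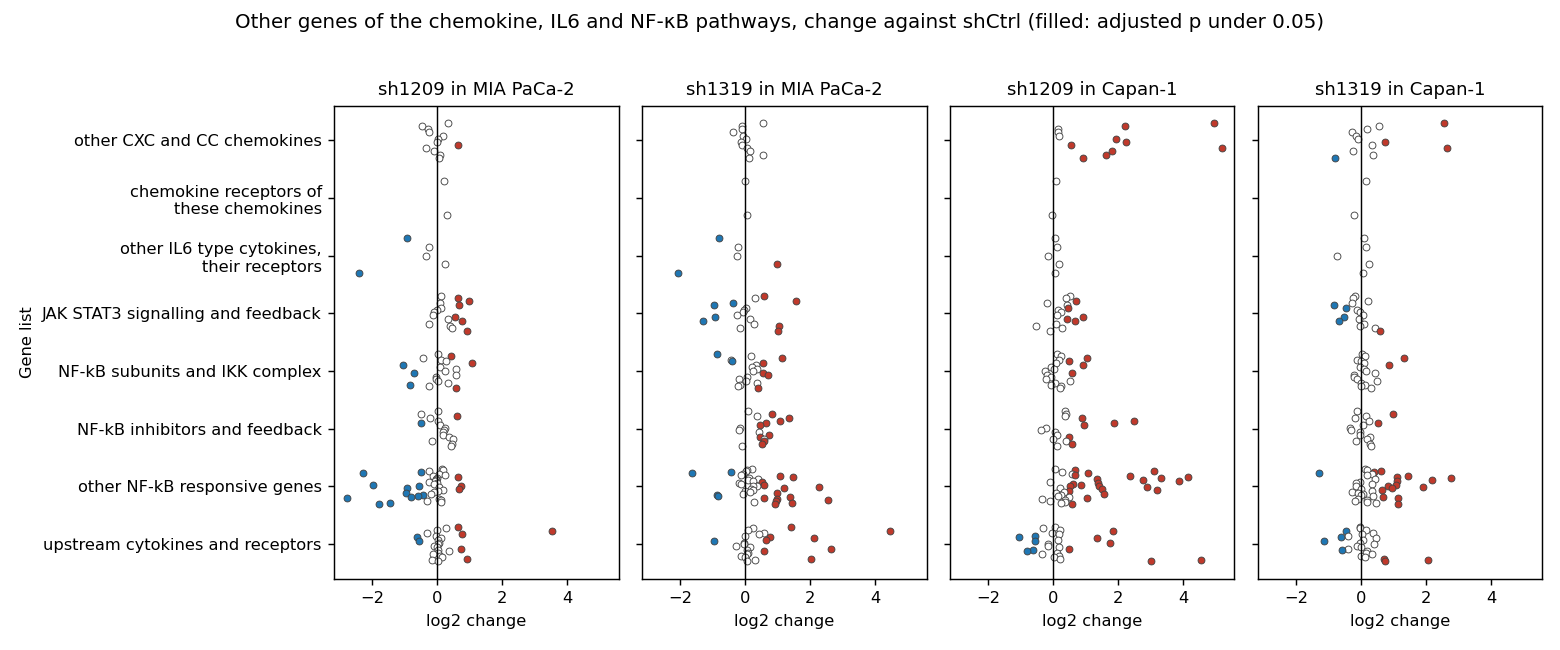
Log2 change against shCtrl of every tested probe (circle) in 8 lists of pathway genes, 1 panel for each pair of hairpin and line, filled red for a called rise and blue for a called fall. In the sh1209 panel of Capan-1, 52 of 132 probes are filled red and 5 blue, and in the sh1209 panel of MIA PaCa-2, 19 are red and 20 blue.

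Upstream of NF-κB, the cytokine IL1B, a strong inducer of CXC chemokines and IL6, rose in 3 of the 4 pairs, and most in MIA PaCa-2. MIA PaCa-2 arrays read 79.4 and 80.7 with shCtrl, both below detection, 230.9 and 291.2 with sh1209 and 453.6 and 544.2 with sh1319. After background correction IL1B rose against those controls at least 8.08-fold under sh1209 (adjusted p = 1.1e-08) and at least 15.4-fold under sh1319 (adjusted p = 1.2e-09). This was the largest fitted rise of any listed probe with either hairpin in that line. Capan-1 read 98.7 and 100.5 with shCtrl, 174.9 and 225.7 with sh1209 and 95.5 and 88.8 with sh1319. IL1B rose 3.62-fold with sh1209 in Capan-1 (adjusted p = 2.7e-06), and with sh1319 it was not detected and at least 1.21-fold lower than with shCtrl (adjusted p = 0.033). The IL1B values given as at least hold for that background correction only, and the intensities above differ by smaller factors. Of the 25 probes for upstream cytokines and receptors, 5 rose and 2 fell with sh1209 in MIA PaCa-2, 8 rose and 1 fell with sh1319, 6 rose and 5 fell in Capan-1 with sh1209, and 3 rose and 4 fell with sh1319. TNFRSF1B, a TNF receptor, fell most on average (-0.81 ± 0.10, adjusted p = 0.00016), and IL1R2, a decoy receptor for IL1, had the largest fall of the listed probes with sh1209 in Capan-1 (probe 1740451, -1.05 ± 0.19, adjusted p = 0.0034).

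Other genes of the IL6 type family were called in MIA PaCa-2 and not in Capan-1. Of 5 tested probes, none was called in Capan-1, 2 fell in MIA PaCa-2 with sh1209 (against 18.0% of all probes called), and 1 rose and 2 fell there with sh1319 (against 24.3%). By the interaction averaged over hairpins, 2 of the 5 differed between lines, both lower in MIA PaCa-2. CLCF1, a gp130 cytokine, changed by -2.41 and -2.08 in MIA PaCa-2, both called, and gave 0.05 and 0.04 in Capan-1 (mean change -1.10 ± 0.11, adjusted p = 2.9e-05). Its probe read 264.5 and 258.4 with shCtrl in MIA PaCa-2, 98.2 and 118.1 with sh1209 and 114.7 and 130.5 with sh1319. IL6ST, which encodes gp130, had a fitted mean rise of 0.41 ± 0.08 (adjusted p = 0.0035). The MIA PaCa-2 controls did not detect it, and against them sh1319 gave at least 1.57-fold more after background correction (adjusted p = 0.00025). Its other 3 changes were not called. Of the 16 probes for JAK and STAT3 signalling and its feedback, sh1209 gave 6 rises in MIA PaCa-2, 5 in Capan-1 and no falls, while with sh1319 4 rose and 4 fell in MIA PaCa-2 and 1 rose and 4 fell in Capan-1. SOCS1, a feedback inhibitor of JAK kinases, had the largest fitted mean rise there (0.86 ± 0.07, adjusted p = 6.2e-06), although it was not detected with shCtrl in either line. After background correction SOCS1 was at least 1.42-fold and 2.13-fold above the MIA PaCa-2 controls with sh1209 and sh1319. It was at least 1.31-fold above the Capan-1 controls with sh1209.

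Genes whose pattern was most like that of NFKBIA, the member probe with the highest mean normalised level, were found by Pearson correlation over the 12 arrays after each line's mean was removed. SIL1 came first (r = 0.985), then TSPAN9 (0.975), CSTB (0.970), DUSP1 (0.968) and ACTN1 (0.963). DUSP1, a phosphatase that inactivates MAP kinases, changed by 1.17 and 2.26 for MIA PaCa-2 cells and 2.39 and 0.87 for Capan-1. Of the members, TNFAIP3 was the nearest (r = 0.914), followed by CCL20 (0.853) and CXCL1 (0.847), and CXCL3 was the farthest (-0.01). These values describe 12 arrays in 6 groups that share lines and hairpins.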

How the data were processed

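Gene expression in both cell lines was measured on 12 Illumina arrays of 1 chip. The deposited intensity and detection p-value of each probe were exported by the authors from GenomeStudio 2011.1 without normalisation, and how the detection p-value was computed beyond that is not given in the sources used here. A table of 47320 rows held 47228 gene probes and 92 control rows. Background was corrected by normexp from the detection p-values (limma 3.58.1, nec, offset 16) in R 4.3.3, arrays were quantile normalised and values taken as log2. Probes detected (p under 0.05) on at least 2 of 12 arrays were kept, leaving 24207. In limma a mean was fitted to each of the 6 groups (residual df 6), with Benjamini-Hochberg adjustment over all tested probes of a comparison and a threshold of 0.05. Fold changes come from the fitted log2 values, not from the intensities. Each fold change given as at least a value was bounded in the way described for TNFAIP3 and holds for this background correction only. The precision is limited by 2 arrays per group. The label shFAK1319 in Capan-1 was read as sh1319.

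The 10 members, the 8 pathway lists, the 4 marker lists and the tests were chosen with earlier results of these data known. Named genes beyond the members were the largest rise and fall of each pathway list in the average comparison and of all listed probes in each pair of hairpin and line, and the 5 probes nearest to the member probe with the highest mean level. Motifs were searched on both strands of RefSeq promoters. The statistics were tested on simulated data. Alternatives covered background correction, scaling, filters, array weights, the arrays of 1 line alone, the replicate block and each array left out. Array replicate numbers did not pair the samples (15 correlations between groups, from -0.06 to 0.16). Current gene symbols were matched for all 10 members.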

Additional observations from a re-analysis of the deposited data

Results flagged for a closer look

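The response of most members differed between the lines by a test of the difference itself (limma interaction, change in MIA PaCa-2 minus change in Capan-1, log2 scale). Averaged over hairpins, the difference was -3.40 for CXCL1, -2.64 for CXCL2, -2.03 and -1.92 for the CXCL5 probes, -3.45 and -2.95 for the IL8 probes, -3.96 for CCL20, -1.09 for IL6 and -1.28 for TNFAIP3 (adjusted p from 8e-07 to 0.0021). NFKBIA, which rose in both lines, did not differ by the test (-0.30, 95% interval -0.64 to 0.04, adjusted p = 0.25). CCL20 and IL6 were not detected in MIA PaCa-2, so that a fall there could not be seen.

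For sh1209 alone the difference was -5.19 for CXCL1, -5.37 for CXCL2, -4.39 and -4.17 for CXCL5, -4.20 and -3.65 for IL8, -6.08 for CCL20, -1.61 for IL6, -1.14 for NFKBIA and -2.14 for TNFAIP3 (adjusted p from 1.5e-08 to 0.0014). LIF gave -1.20 (adjusted p = 0.027), a call lost when any 1 of 5 arrays was left out, with values from -1.22 to -0.91 and adjusted p from 0.070 to 0.11. Those arrays were both Capan-1 shCtrl arrays and replicate 2 of Capan-1 sh1209, MIA PaCa-2 sh1209 and MIA PaCa-2 shCtrl. The call was also lost with no filter on low signal (adjusted p = 0.057). For sh1319 alone the differences were -1.60 for CXCL1 (adjusted p = 0.011), -2.70 and -2.25 for IL8 (adjusted p = 3.1e-05 and 2.4e-05) and -1.84 for CCL20 (adjusted p = 0.0011). PTK2 probe 450253 also differed between lines, by -1.63 for sh1209 and -0.71 for sh1319 (adjusted p = 4.5e-05 and 0.014). The second PTK2 probe, 2680750, at low signal, differed the other way for sh1209 (0.77, adjusted p = 0.046) and gave 0.17 for sh1319 (not called). The part of PTK2 in the differences of the members was not tested. No group had the 4 arrays needed to look for a single array far from the others.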

How the results depend on the processing

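No called value of a member probe changed direction under any alternative run, and the counts of called member probes stayed within 1.5 times of those reported with the exceptions given here. Limits come from 2 arrays per group and from signals near background (CXCL3, IL6, LIF, TNFAIP3, and CCL20 in MIA PaCa-2). The methods' t-test after Benjamini-Hochberg called 0 member probes in the average comparison, in each of the 4 pairs and in both comparisons of hairpins, and 3 between lines with shCtrl. For the average comparison this t-test pooled both lines, all FAK hairpin arrays against all shCtrl arrays. The difference between lines therefore entered its spread, unlike in the limma comparison within lines. Of all 24207 probes the t-test called 79 in the average comparison, 1, 4, 0 and 0 in the pairs, and 1 and 2 between hairpins. Between lines it called 3905. At an unadjusted p under 0.05 that test gave 3, then 4, 6, 11 and 9 for sh1209 and sh1319 in MIA PaCa-2 then Capan-1, 5 and 10 between hairpins in MIA PaCa-2 and Capan-1, and 7 between lines. In the same order, the unadjusted counts over all probes were 2075, then 4613, 5646, 4935 and 4393, then 5492 and 3988, and 8686. Averaging the arrays of each group called 0 member probes in the average comparison (1 at an unadjusted p under 0.05, against 1813 of all probes unadjusted and 0 adjusted). Requiring a log2 change of at least 1 left 3 with sh1319 in MIA PaCa-2 and 5 with sh1319 in Capan-1. Leaving out 1 array at a time gave 4 to 7 with sh1319 in MIA PaCa-2, the 4 without MIA PaCa-2 sh1319 replicate 1. Median scaling moved PTK2 with sh1209 in Capan-1 to -0.42, and moved the median of all probes by up to 0.11 (sh1319 in Capan-1). With no background correction 23 of 88 called single values of members moved by over 1.5 times on the log2 scale, all toward 0, and with an offset of 50, 16 of 88. Reversals were of uncalled values. With no background correction IL6 gave 0.0082 with sh1319 in MIA PaCa-2. With 1 array left out, CXCL3 ranged from -0.19 to 0.21 with sh1209 and -0.070 to 0.40 with sh1319 in MIA PaCa-2 and from -0.21 to 0.38 with sh1319 in Capan-1, IL6 from -0.052 to 0.21 with sh1209 and -0.17 to 0.10 with sh1319 in the former line, IL8 probe 1570553 from -0.26 to 0.20 and TNFAIP3 from -0.12 to 0.51, the last 2 with sh1209 in MIA PaCa-2. As replicate numbers did not pair the samples, the replicate block was an alternative only. It called 9 member probes in the average comparison, 4 (sh1209) and 7 (sh1319) in MIA PaCa-2 and 10 with either hairpin in Capan-1, and changed no call of a single member probe in the 9 planned comparisons.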

Other observations

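Several listed genes outside the rule for named genes were picked here after their values were seen. LTB, which encodes lymphotoxin beta of the TNF family, rose 23.7-fold with sh1209 and 4.21-fold with sh1319 in Capan-1 by probe 5310053 (log2 changes 4.57 and 2.07, SE 0.16, adjusted p = 8.5e-09 and 1.6e-05), and gave -0.17 and 0.29 in MIA PaCa-2. After background correction TNF was at least 2.75-fold higher with sh1209 in Capan-1 than with shCtrl, where it was not detected (adjusted p = 2.8e-06). TNF was not detected in the other groups. IL32 rose with sh1319 in both lines and with sh1209 in Capan-1 (probe 3440754, at least 3.86-fold in MIA PaCa-2 after background correction, 3.78-fold and 7.39-fold in Capan-1, adjusted p = 2.5e-07, 7.6e-06 and 5.5e-08), with 0.04 for sh1209 in MIA PaCa-2. IRAK2, a kinase of the IL1 receptor pathway, rose 6.28-fold with sh1319 in MIA PaCa-2 (2.65 ± 0.14, adjusted p = 1.1e-07).

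STAT3, the transcription factor downstream of IL6 and LIF, followed the hairpin in both lines. All 3 of its probes rose with sh1209 in MIA PaCa-2 (0.53 to 0.77) and fell with sh1319 (-0.94 to -1.29). In Capan-1, 2 of 3 rose with sh1209 (0.93 and 0.67, with 0.44 for the other, adjusted p = 0.12), and all 3 fell with sh1319 (-0.52 to -0.86).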
